A study of Homo sapiens with 12 samples.

Results

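The 9 genes described here, of membrane phospholipid remodelling, were followed in A375 cells: the lysophospholipid acyltransferases LPCAT1, LPCAT2, LPCAT3, LPCAT4, MBOAT1, MBOAT2 and MBOAT7, together with PEMT and PCYT1A. They were 9 of the 23705 genes in the count table, found by matching its gene numbers to symbols, and all 9 were abundant enough to be tested among 13522 genes. LPCAT3 and PEMT were selected on their measured mRNA difference between rosiglitazone (RGZ) and vehicle, being higher with RGZ, so their values in every contrast that holds RGZ or vehicle libraries, the interaction included, are given as a description, and their part in the counts of calls supports nothing there. A375 is an established human melanoma cell line. Cells were kept for 24 h in vehicle (DMSO), in 5 µM RGZ, an agonist of the nuclear receptor PPARγ, in 2 µM T0070907, a PPARγ antagonist, or in both compounds at those doses (the combination). Each of the 4 conditions had 3 libraries, 1 from each of 3 independent experiments, with the RNA of technical replicates pooled inside an experiment. All were grown in medium with serum, and all results concern this 1 cell line.

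Membrane phospholipids are first assembled with whatever fatty acids are at hand and are then remodelled: a phospholipase removes an acyl chain, and a lysophospholipid acyltransferase puts another in its place (the Lands cycle). LPCAT3 prefers polyunsaturated chains, and its product lipids keep membranes fluid. In liver and intestine LPCAT3 is a known target of the sterol receptor LXR. Phosphatidylcholine itself is made either from choline, with the PCYT1A enzyme at the controlling step, or by PEMT, which methylates phosphatidylethanolamine.

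Library totals ran from 8319455 to 11375227 counts. Levels are CPM, read counts scaled to a common library size by trimmed means (TMM), and differences are log2 fold changes with an approximate SE. Tests used edgeR's quasi-likelihood method, with p-values adjusted by Benjamini-Hochberg over all 13522 genes, and a gene was called at an adjusted p under 0.05. Because the experiment number pairs the libraries, a fit with the experiment as a block is given wherever it changed a member's call. For genes of the related lists, block calls are given for RGZ against vehicle only. Other comparisons held further block calls of list genes that are not given. Of 9 melanoma markers, SOX10, MCAM and CSPG4 averaged 311, 312 and 341 CPM in vehicle, while TYR had no count in any library and MLANA and PMEL averaged 0.227 and 1.13 CPM, so the pigmentation markers were absent or nearly so. The summed melanoma markers ranged from 946 to 1217 CPM in vehicle and from 1004 to 1174 CPM with RGZ. Of 5 leukocyte markers 3, PTPRC and CD3E among them, were at or under 3 counts in every library, while CD68, a lysosomal protein also made outside leukocytes, averaged 49.6 CPM in vehicle and 66.3 CPM with RGZ. The summed leukocyte list ranged from 36.1 to 74.7 CPM in vehicle and from 50.3 to 97.7 CPM with RGZ. The 5 keratinocyte markers, with KRT1 and DSG3 at or under 3 counts in every library, summed to 87.9 to 114 CPM in vehicle and 85.9 to 99.1 CPM with RGZ. Most of this sum came from KRT10, which averaged 76.5 CPM in vehicle and 80.9 CPM with RGZ. KRT14 averaged 20.8 CPM in vehicle and 10.7 CPM with RGZ. The 6 fibroblast markers summed to 15.2 to 35.8 and 11.4 to 22.1 CPM, and the 4 endothelial markers to 5.59 to 8.35 and 2.91 to 5.79 CPM. The part of other cell types in the results was not tested. In bulk RNA, fewer cells of a type and less RNA per cell cannot be told apart.

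The upstream windows of the genes whose levels differed are shown so that their sequence can be read beside the values. They come from RefSeq on GRCh38.p14, each of 300 bases around a start site, most of it upstream, 5′ to 3′ on the gene's strand. The reads had been placed on hg19. Windows were found for 7 of the 9 genes, LPCAT2 and MBOAT1 being the others. Capitals mark CCAAT boxes (CCAAT) and GC boxes (GGGCGG) on either strand. LPCAT3 lies at chr12:7018427-7018726 on the minus strand, PEMT, at the first of its 3 start sites, at chr17:17591659-17591958 on the minus strand, and MBOAT7 at chr19:54189531-54189830 on the minus strand.
LPCAT3: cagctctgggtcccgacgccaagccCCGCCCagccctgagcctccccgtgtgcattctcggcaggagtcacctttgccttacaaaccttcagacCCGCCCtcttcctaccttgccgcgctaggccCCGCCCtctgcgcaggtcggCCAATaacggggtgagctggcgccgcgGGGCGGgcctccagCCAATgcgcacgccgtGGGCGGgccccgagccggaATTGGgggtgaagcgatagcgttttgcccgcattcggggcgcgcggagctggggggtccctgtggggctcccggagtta
PEMT: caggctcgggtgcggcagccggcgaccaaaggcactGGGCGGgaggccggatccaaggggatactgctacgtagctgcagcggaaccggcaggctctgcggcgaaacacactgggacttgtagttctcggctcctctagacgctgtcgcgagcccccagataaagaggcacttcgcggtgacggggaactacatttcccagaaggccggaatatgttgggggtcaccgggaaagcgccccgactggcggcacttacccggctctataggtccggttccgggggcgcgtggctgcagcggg
MBOAT7: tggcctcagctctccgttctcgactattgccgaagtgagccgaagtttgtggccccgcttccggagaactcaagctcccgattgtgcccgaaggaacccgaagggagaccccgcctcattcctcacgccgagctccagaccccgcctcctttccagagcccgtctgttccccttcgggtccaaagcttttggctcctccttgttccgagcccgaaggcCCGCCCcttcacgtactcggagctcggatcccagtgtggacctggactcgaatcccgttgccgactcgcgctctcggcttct

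The LPCAT3 window held 3 CCAAT boxes and 5 GC boxes at 70.0% GC. A CCAAT box was present in 34.6% of 35116 promoter windows of the same length, 3 or more in 3.26%, and a GC box in 45.0%. The PEMT and MBOAT7 windows held 1 GC box each and no CCAAT box. The nuclear receptor core motif AGGTCA, present in 13.8% of all windows, was in none of the windows of these genes, and neither were its direct repeats AGGTCANAGGTCA (0.0228% of all windows) and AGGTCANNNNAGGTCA (0.0199%). The letters searched were exact and covered both strands. A match is a description of these windows only.

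LPCAT3 was the member with the widest range in CPM. Its level was 68.2, 69.7 and 75.7 CPM in vehicle in experiments 1, 2 and 3, and 132, 145 and 139 CPM with RGZ. It was 49.3, 50.8 and 51.1 CPM with T0070907, and 69.4, 77.4 and 86.6 CPM with the combination. The RGZ libraries were all above, and the T0070907 libraries all below, every other library, while vehicle and combination overlapped. Within each of the 3 experiments the order was RGZ, combination, vehicle, T0070907. The order holds the difference LPCAT3 was selected on, so nothing is read from the 0.747% of all tested genes that share it.

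With RGZ the LPCAT3 level was 0.96 higher than in vehicle on the log2 scale (SE 0.08, n = 3 and 3), a 1.94-fold difference that is given without a test. The ratio within experiments 1, 2 and 3 was 1.93, 2.07 and 1.84. LPCAT3 was lower when T0070907 was added to RGZ, with a log2 fold change of -0.83 (SE 0.08) between the combination and RGZ alone and ratios of 0.528, 0.535 and 0.621 in the 3 experiments. This contrast uses the RGZ libraries whose high values selected the gene, which favours a lower value in the other group, so it is given as a description.

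The combination was also above T0070907 alone. The log2 fold change was 0.63 (SE 0.08), with ratios of 1.41, 1.52 and 1.69 in the 3 experiments and an adjusted p of 0.0173 by edgeR's quasi-likelihood test. None of the libraries in which LPCAT3 was picked enter this contrast, although its result was known beforehand. The call was lost when the combination library of experiment 2 or 3, or any of the 3 T0070907 libraries, was left out (highest adjusted p 0.163), and was made in 12 of 12 such fits with the experiment block.

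T0070907 alone gave a lower LPCAT3 level than vehicle, in 3 of 3 experiments (ratios 0.723, 0.729 and 0.675). The log2 fold change was -0.50 (SE 0.08). The vehicle libraries are among those in which the gene was picked, so this too is given as a description. The combination and vehicle differed by 0.13 (SE 0.08), with overlapping libraries, again without a test. The interaction value, by which the RGZ difference in the presence of T0070907 fell short of that without it, was -0.33 (SE 0.11) and was not tested.

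**Figure D1:**
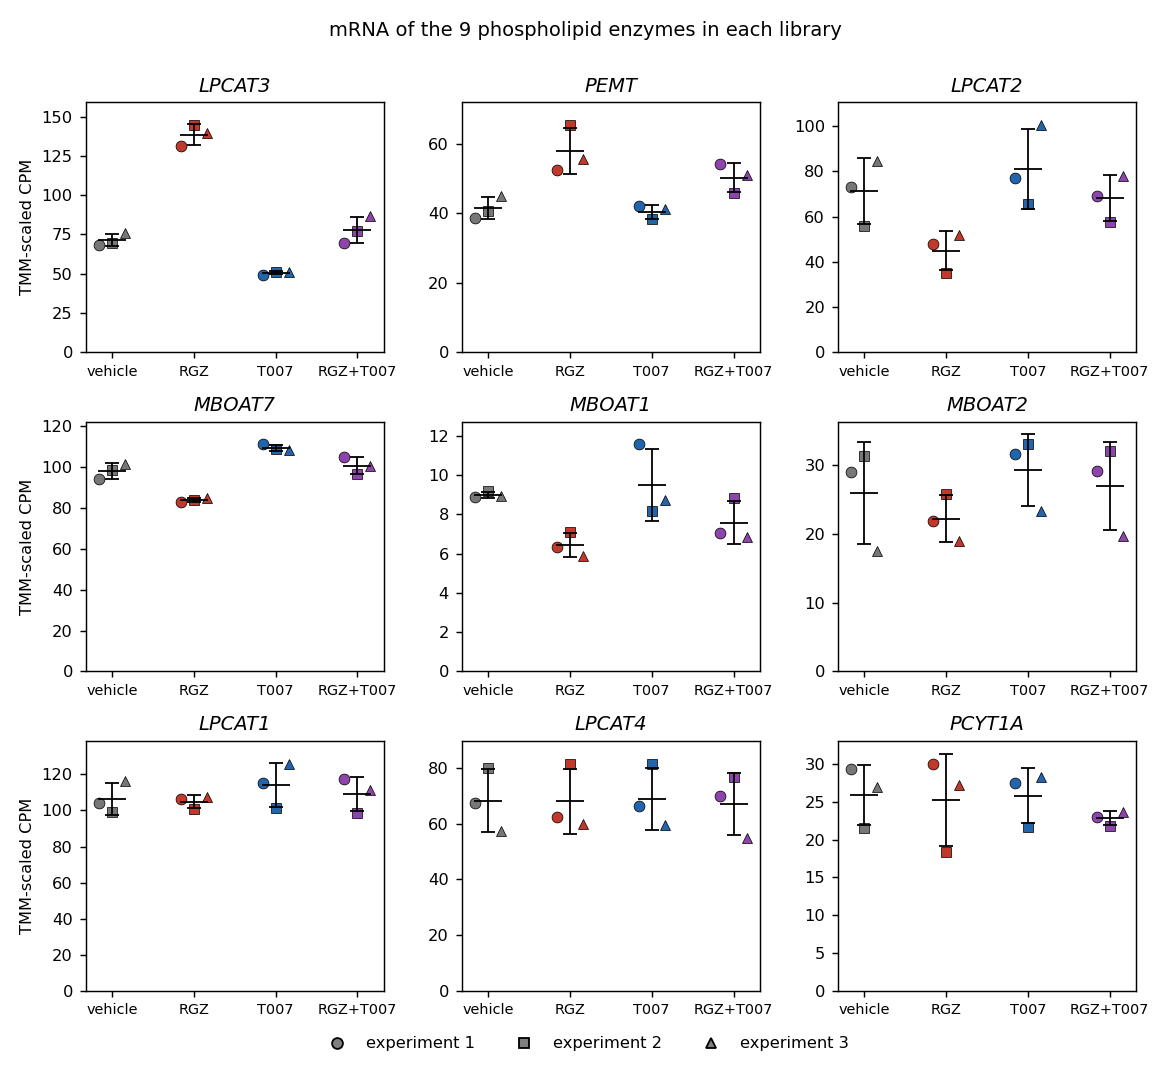
Level of each of the 9 genes in TMM-scaled CPM (vertical axes, starting at 0) in the 4 conditions (T007 is T0070907), with 1 point for each library, the shape giving the experiment, and bars for mean and SD of 3 libraries. LPCAT3 reached 132 to 145 CPM with RGZ and 49.3 to 51.1 CPM with T0070907, whereas LPCAT1, LPCAT4 and PCYT1A overlapped in all conditions.

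The LPCAT3 locus needs a caution on its reads. In GENCODE release 29, LPCAT3 (NCBI gene 10162) spans chr12:6976186-7018510 of GRCh38 on the minus strand, and EMG1, a ribosome biogenesis factor, runs over it on the plus strand. Over all isoforms, their exons share 3100 nt, 65.6% of the 4725 exonic nt of LPCAT3. The strand setting of the counting was not given in the sources used here, so reads of the 2 genes in the shared stretch cannot be told apart. EMG1 had 1265 to 1700 counts in the libraries, and its own log2 fold change with RGZ was 0.15 (SE 0.09, adjusted p 0.63 by edgeR). For the combination against RGZ it was 0.07 (SE 0.09, adjusted p 0.802 by edgeR). For the combination against T0070907 it was 0.30 (SE 0.09, adjusted p 0.261 by edgeR and 0.0297 with the block), in the same direction as LPCAT3 and smaller than its 0.63. How much of the LPCAT3 count came from EMG1 reads was not tested.

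PEMT, the methyltransferase that makes phosphatidylcholine from phosphatidylethanolamine, showed a smaller difference. Its level was 38.7, 40.7 and 45.1 CPM in vehicle and 52.6, 65.4 and 55.7 CPM with RGZ, without overlap. It was 42.0, 38.2 and 41.2 CPM with T0070907 and 54.1, 45.7 and 51.0 CPM with the combination. RGZ libraries were above all vehicle libraries by 0.48 on the log2 scale (SE 0.10), a 1.40-fold difference given without a test.

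Unlike LPCAT3, PEMT with the combination overlapped RGZ alone: the ratios were 1.03, 0.699 and 0.915, and the log2 fold change of -0.20 (SE 0.10) is given without a test, since PEMT too was selected on the RGZ and vehicle libraries. Whether the 2 genes differ in this contrast was not tested. Combination libraries were above all T0070907 libraries (log2 fold change 0.31, SE 0.10), with an adjusted p of 0.261 by edgeR and 0.0453 with the experiment block. That call was made in 4 of 12 block fits with 1 library left out. Against vehicle the combination was 0.28 higher (SE 0.10), without overlap and without a test, and T0070907 against vehicle was -0.04 (SE 0.10).

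Among the 7 members that had not been picked, none was called between RGZ and vehicle by edgeR's quasi-likelihood test, where 1.24% of all tested genes were called. At an unadjusted p under 0.05 there were 3 (LPCAT2, MBOAT1 and MBOAT7, all lower with RGZ), against 10.5% of all genes. DESeq2 called 1 (LPCAT2), against 2.23% of all genes, and limma-voom none, against 1.13%. The experiment block called 2 (LPCAT2 and MBOAT7), against 9.3% of all genes. The libraries of RGZ and vehicle did not overlap for LPCAT2, MBOAT1 and MBOAT7, where 16.8% of all genes did not overlap. LPCAT3 and PEMT did not overlap either, as their selection favoured.

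LPCAT2, an acyltransferase that makes phosphatidylcholine and also platelet-activating factor, was lowest with RGZ and highest with T0070907 in each experiment. It was at 73.2, 55.9 and 84.7 CPM in vehicle and at 47.9, 35.1 and 51.8 CPM with RGZ. It was at 77.2, 65.5 and 101 CPM with T0070907 and at 69.2, 57.5 and 78.1 CPM with the combination. Experiment 2 was the lowest in every condition, and the RGZ libraries lay below all others.

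RGZ against vehicle gave ratios of 0.654, 0.627 and 0.611 for LPCAT2, and a log2 fold change of -0.66 (SE 0.20). The adjusted p was 0.186 by edgeR and 5.51e-06 with the experiment block, which removes the shift between experiments. The combination was above RGZ alone in 3 of 3 experiments (ratios 1.44, 1.64 and 1.51). Its log2 fold change was 0.60 (SE 0.20), with an adjusted p of 0.223 by edgeR and 1.52e-05 with the block. Both block calls were made in 12 of 12 fits with 1 library left out. T0070907 against vehicle gave 0.19 (SE 0.19, adjusted p 1.00 by edgeR and 0.30 with the block), with overlapping libraries. Against T0070907 the combination was lower, at -0.25 (SE 0.19, adjusted p 0.59 by edgeR and 0.035 with the block), and this block call was made in 6 of 12 such fits.

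MBOAT7, which places arachidonic acid into phosphatidylinositol, had a CV between replicates of at most 4.30% in each condition. It was at 93.8, 98.5 and 102 CPM in vehicle and at 82.6, 83.6 and 84.6 CPM with RGZ. It was at 111, 109 and 108 CPM with T0070907 and at 105, 96.2 and 101 CPM with the combination. Both MBOAT7 and LPCAT2 were highest with T0070907 and lowest with RGZ in all 3 experiments, an order held by 2.65% of all tested genes. This order was not among the planned results, so nothing is read from that share.

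MBOAT7 with RGZ against vehicle had a log2 fold change of -0.23 (SE 0.06, adjusted p 0.088 by edgeR and 0.0206 with the block, called in 7 of 12 block fits with 1 library left out). The combination was 0.27 above RGZ alone (SE 0.06), with an adjusted p of 0.0449 by edgeR. Without any 1 of the 12 libraries this adjusted p lay between 0.0512 and 0.173, so the call was lost in every such fit. The log2 fold change in these fits stayed between 0.23 and 0.30. The adjusted p was 0.00687 with the block, which made the call in 11 of 12 such fits, and 0.0085 by DESeq2. T0070907 libraries were all above vehicle libraries (0.16, SE 0.06, adjusted p 1.00 by edgeR).

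MBOAT1 and MBOAT2 had the lowest CPM in vehicle among the acyltransferase members. MBOAT1 was at 8.86, 9.16 and 8.94 CPM in vehicle and at 6.34, 7.08 and 5.89 CPM with RGZ. The RGZ libraries were all below vehicle, at -0.48 (SE 0.17), and the difference was not called (adjusted p 0.281 by edgeR and 0.068 with the block). MBOAT2 was at 28.95, 31.3 and 17.5 CPM in vehicle and at 21.8, 25.7 and 18.98 CPM with RGZ, overlapping groups that differed by -0.23 (SE 0.23, adjusted p 0.788 by edgeR).

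LPCAT1, which handles saturated chains in lung surfactant, LPCAT4, and PCYT1A were not called in any comparison. LPCAT1 ranged from 98.7 to 126 CPM over the 12 libraries. LPCAT4 ranged from 55.0 to 81.5 CPM, with experiment 2 the highest in every condition. PCYT1A ranged from 18.4 to 30.0 CPM. Their log2 fold changes in the 5 comparisons lay between -0.18 and 0.10.

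**Figure D2:**
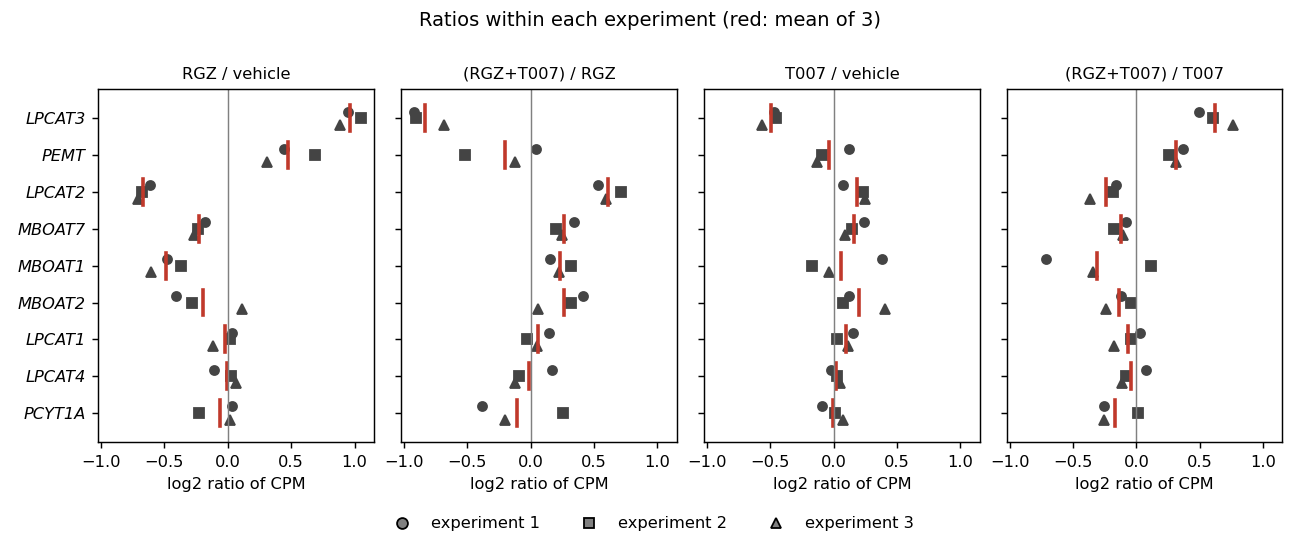
Log2 ratio of CPM within each experiment (horizontal axes) for the 9 genes (vertical axis) in 4 comparisons, where points are the 3 experiments, red lines their mean, and T007 is T0070907. For LPCAT3 the points lie right of 0 in RGZ / vehicle and left of 0 after T0070907 was added to RGZ, and for LPCAT2 and MBOAT7 the sides are exchanged.

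Counted over all 9 members, the combination against RGZ had 2 calls by edgeR (LPCAT3 lower, MBOAT7 higher), where 1.24% of all genes were called. With the block there were 3, where 11.4% of all genes were called, and limma-voom called 1 (LPCAT3), where it called 1.23% of all genes. The selection on the RGZ libraries favoured LPCAT3 here, so nothing is read from these counts against the shares of all genes. At an unadjusted p under 0.05 there were also 3, against 13.1%, and the libraries did not overlap for the same 3 genes (LPCAT2, LPCAT3 and MBOAT7), against 17.7%.

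T0070907 against vehicle had none by edgeR, where 0.0074% of all genes were called, none by limma-voom (0.0% of all genes) and 1 by DESeq2 (LPCAT3, 0.155% of all genes). At an unadjusted p under 0.05 there were 2 (LPCAT3 and MBOAT7), where the share of all genes was 3.1%. The libraries of both genes did not overlap, where 7.67% of all genes did not. The block called 1 (LPCAT3), where 0.91% of all genes were called. LPCAT3 was selected with the vehicle libraries, so nothing is read from its part in these counts.

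The combination against T0070907 had 1 call by edgeR (LPCAT3), against 0.037% of all genes. With the block there were 3 (LPCAT2, LPCAT3 and PEMT), against 8.76%, and at an unadjusted p under 0.05 there were 2 (LPCAT3 and PEMT), against 15.0%. The libraries did not overlap for 3 (LPCAT3, MBOAT7 and PEMT), against 18.7%.

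The combination against vehicle had none by edgeR, by the block, by DESeq2 or by limma-voom, against 0.0% of all genes by each of them. At an unadjusted p under 0.05 there was 1 (PEMT), against 10.6%, and the libraries did not overlap for 2 (MBOAT1 and PEMT), against 12.2%. The interaction, tested for 7 members, called none by edgeR, by the block, by DESeq2 or by limma-voom, against 0.0% of all genes by edgeR and limma-voom, 0.281% by the block and 0.0074% by DESeq2. None had an unadjusted p under 0.05, against 3.0%.

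The median log2 fold change of the 9 members with RGZ was -0.04, beside -0.01 over all genes tested, with members on both sides of 0. Over the 7 members that had not been selected it was -0.23. Leaving out the genes picked for being higher with RGZ lowers this median by construction, so nothing is read from it. For the combination against RGZ the medians were 0.06 and 0.01. These comparisons share libraries with each other, which links their values.

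To compare genes with each other, CPM was set against transcript length, using the longest isoform of each gene. In vehicle, PEMT had the highest level per kb (39.5 CPM per kb), followed by MBOAT7 (32.2), LPCAT4 (30.2), LPCAT3 (24.5), LPCAT1 (18.999), LPCAT2 (13.2), MBOAT1 (5.01), PCYT1A (4.63) and MBOAT2 (3.35). The libraries of MBOAT7 and LPCAT4, of LPCAT4 and LPCAT3, of MBOAT1 and PCYT1A, and of PCYT1A and MBOAT2 overlapped, so those neighbours do not differ beyond their spread. PEMT ranked 1903 and MBOAT2 ranked 9138 of 13305 genes with a length.

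The share of LPCAT3 in the summed level per kb of LPCAT1 to LPCAT4 was 28.2% ± 1.24 (SD, n = 3) in vehicle and 45.5% ± 0.814 with RGZ. It was 20.9% ± 0.131 with T0070907 and 30.2% ± 3.36 with the combination. The LPCAT2 share was 15.2% ± 3.06, 8.003% ± 1.84, 18.03% ± 3.72 and 14.3% ± 2.18 in the same order. The summed level itself was 86.9 ± 1.36 CPM per kb in vehicle and 105 ± 4.96 CPM per kb with RGZ. Shares follow from the levels above and from the chosen transcript lengths, and carry no test.

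**Figure D3:**
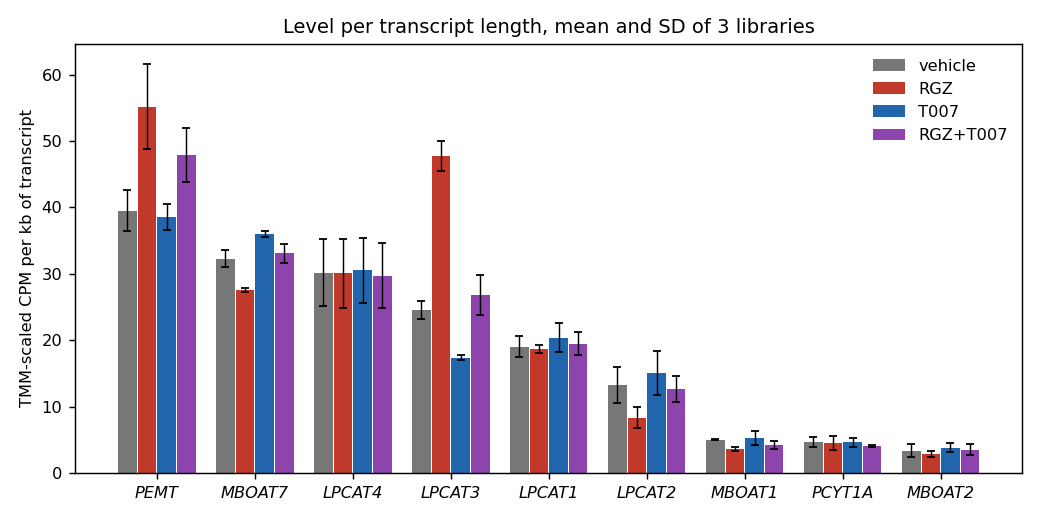
Mean level in TMM-scaled CPM per kb of transcript (vertical axis, from 0) with SD of 3 libraries, for the 9 genes in order of their vehicle level; T007 is T0070907. LPCAT3 was at 24.5 CPM per kb in vehicle and reached 47.7 CPM per kb with RGZ.

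The genes around these enzymes were read from lists of related pathways. Their counts stand beside the 1.24% of all genes called with RGZ by edgeR and the 9.3% called with the block, and nothing particular to a list is read from them. Of 9 tested glycerophospholipid acyltransferases outside the member list, 1 was called with RGZ. This was AGPAT2, which makes phosphatidic acid, at 60.9, 71.2 and 62.2 CPM in vehicle and 96.0, 113 and 89.1 CPM with RGZ (log2 fold change 0.62, SE 0.12, adjusted p 0.0258 by edgeR). The list's median log2 fold change was 0.00373, beside -0.00947 over all genes.

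On a list drawn up for polyunsaturated acyl-CoA supply, 1 of 9 tested genes rose with RGZ and none fell by edgeR. The block called 3 higher (ACSL3, ACSL4 and ACSL5) and 1 lower, the desaturase family gene FADS3. Acyl-CoA itself was not measured. ACSL3, an acyl-CoA synthetase found on lipid droplets, was at 171, 171 and 190 CPM in vehicle and 309, 324 and 402 CPM with RGZ. It rose by 0.96 on the log2 scale (SE 0.13, adjusted p 0.00375 by edgeR) and was lower again in the combination than with RGZ (-0.76, SE 0.13, adjusted p 0.0136). ACSL4, which prefers arachidonic acid, was higher with RGZ by 0.36 (SE 0.10, adjusted p 0.168 by edgeR and 0.00352 with the block). It fell in the combination against RGZ (-0.49, SE 0.10, adjusted p 0.0476).

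ACSL5 was called with RGZ only in the block fit. Its 3 experiments differed widely, at 2.38, 8.09 and 2.12 CPM in vehicle and 6.55, 21.9 and 4.36 CPM with RGZ, with a log2 fold change of 1.38 (SE 0.75) and an adjusted p of 0.57 by edgeR. In the block fit its value was 1.36.

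Of 11 tested genes of the Kennedy pathway and base exchange, none was called with RGZ by edgeR, and the block called 1, PCYT1B, the sister of PCYT1A, at -0.53 (SE 0.17, adjusted p 0.224 by edgeR and 0.043 with the block). Of 19 tested phospholipases and lysophospholipases none was called by edgeR, and the block called PLA2G7, which breaks down platelet-activating factor, at -0.92 (SE 0.29, adjusted p 0.224 by edgeR and 0.00500 with the block). None of 7 genes of phosphatidylinositol and cardiolipin synthesis, none of 8 methyl donor genes and none of 5 further MBOAT genes was called with RGZ by edgeR or by the block.

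Of 7 LXR genes and sterol targets none was called with RGZ by edgeR, and the block called 2. NR1H3, which encodes LXRα, was at 18.6, 38.3 and 21.8 CPM in vehicle and 42.4, 79.9 and 38.9 CPM with RGZ (log2 fold change 1.03, SE 0.32, adjusted p 0.216 by edgeR and 1.91e-06 with the block). Each experiment had a higher value with RGZ, and experiment 2 stood above the others in both conditions. ABCA1, the cholesterol exporter, was higher by 0.63 (SE 0.25, adjusted p 0.363 by edgeR and 0.018 with the block). For scale, all 10 described PPAR targets rose with RGZ by edgeR, with a median log2 fold change of 3.64, and 9 were called lower in the combination than with RGZ.

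**Figure D4:**
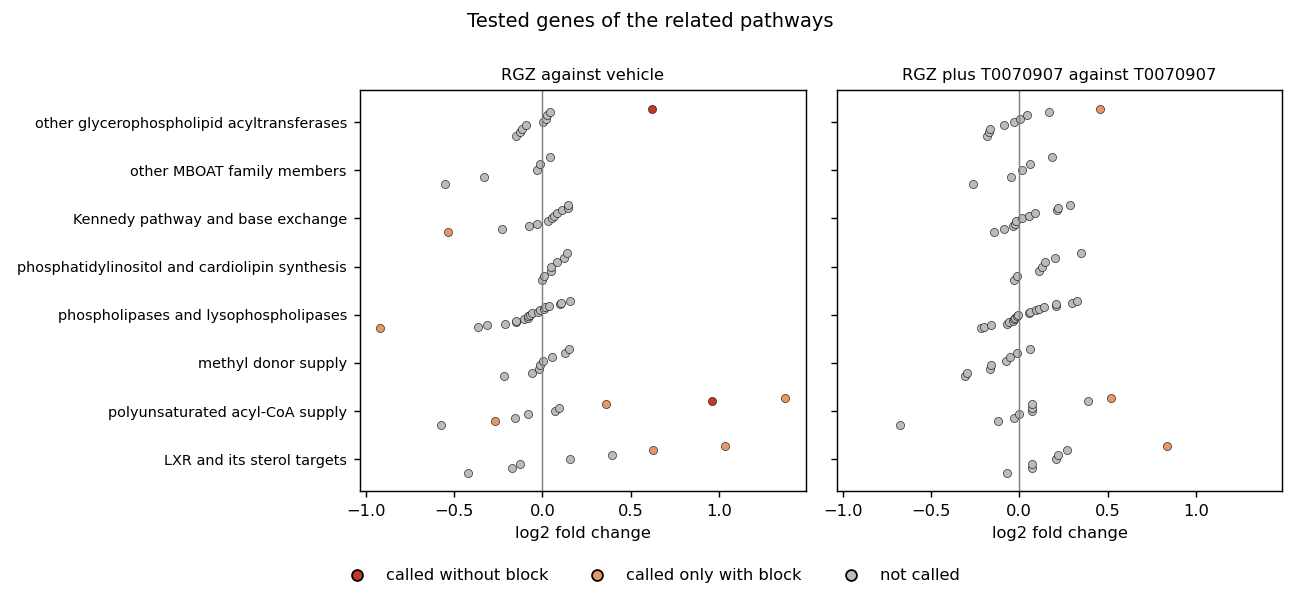
Log2 fold change (horizontal axes) of each tested gene of 8 related lists (vertical axis) for RGZ against vehicle and for the combination against T0070907, coloured by whether edgeR called it without the experiment block, only with it, or not at all. In RGZ against vehicle, AGPAT2 at 0.62 and ACSL3 at 0.96 are the genes called without the block.

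The genes whose pattern was most like that of LPCAT3 were sought by Pearson's r of log2 CPM over the 12 libraries, after subtracting the mean of each experiment, among 13217 genes. They were PLIN4 (r = 0.997) and PLIN2 (0.997), which coat lipid droplets, ANGPTL4 (0.995), a secreted lipase inhibitor, SLC25A20 (0.995), the mitochondrial carnitine carrier, and STK10 (0.994), a kinase. The choice rests on the measure: with Spearman's rho in place of Pearson's r, 1 of these 5 genes was again among the 5 most like LPCAT3. In the other alternative that was run, 4 of the 5 were. All genes were read in the same 12 libraries under the same 4 conditions, and the values carry no test. SLC25A20 averaged 29.8 ± 2.01 CPM in vehicle (SD, n = 3), 57.0 ± 1.44 CPM in RGZ libraries, 23.1 ± 0.447 CPM in T0070907 libraries and 32.7 ± 3.93 CPM in combination libraries.

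Other members lay far apart on the same scale. PEMT had an r of 0.837 with LPCAT3, rank 746, a likeness that the selection of both genes on the RGZ and vehicle libraries favoured. LPCAT2 (r = -0.973, rank 13195) and MBOAT7 (r = -0.956, rank 13141) were near the opposite end of the 13217 genes. MBOAT2 (r = -0.850, rank 12567), MBOAT1 (r = -0.782, rank 12214) and LPCAT1 (r = -0.608, rank 11087) were negative as well. LPCAT4 (-0.203) and PCYT1A (-0.181) lay between these and PEMT.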

How the data were processed

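The deposited values are raw read counts per gene made by the authors from 12 TruSeq RNA libraries, with hg19 named in the submitters' processing notes. The aligner, counter, annotation and strand setting are not given in the sources used here. No columns of other samples were present. Counts were scaled by TMM and tested with edgeR 4.0.16 (quasi-likelihood, filterByExpr, Benjamini-Hochberg) in R 4.3.3, on all 12 libraries and 4 groups. The SE is the size of the log2 fold change over the root of F. DESeq2 1.42.0 and limma 3.58.1 (voom) were alternatives. The scripts were tested on simulated data.

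The experiment numbers pair the libraries per the labels: deviations of libraries of the same experiment correlated with a mean of 0.554 (0.0793 to 0.758 over 18 pairs). The main design has no block. Leaving out each library within the block fit was chosen after seeing the data. The members and lists were chosen with earlier results of these data known. Named genes are all 9 members, list genes called in any pairwise comparison (or with the block at a log2 size of at least 0.5) and the 5 genes most like LPCAT3. PPAR targets are summarised by their counts and median, except where they are among the genes most like LPCAT3. EMG1, FADS3 and marker genes fall outside that rule and were added after their values were seen. Symbols came from NCBI gene numbers, and 9 of 11 acyltransferases listed outside the members were matched. Lengths and overlaps come from GENCODE release 29.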

Additional observations from a re-analysis of the deposited data

How the results depend on the processing

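The LPCAT3 call in the combination against T0070907 was lost when the fit held only the groups compared (adjusted p 0.243, with fewer libraries) and in 5 of 12 fits with 1 library left out. With the replicate block, the members called were 2 in RGZ against vehicle (9.3% of all genes), 1 in T0070907 against vehicle (0.91%) and 3 in the combination against T0070907 (8.76%), and the block changed no member's call beyond those given beside the results. DESeq2 called 1 member in RGZ against vehicle, where it called 2.23% of all genes, and 1 in T0070907 against vehicle, where it called 0.155%. In the combination against RGZ, 1 member was called by limma-voom (1.23% of all genes), without the low-count filter (0.878%), with only the groups compared (0.313%) and at an adjusted p under 0.01 (0.303%), and 1 with any library left out (0.386% to 1.08%). In the combination against T0070907, 0 were called with only the groups compared and at an adjusted p under 0.01 (0.0% of all genes in both), and 0 to 1 with a library left out (0.0% to 0.102%). The causes of these differences were not tested. With Spearman's rho, 1 of the 5 genes most like LPCAT3 was shared, and in the other alternative that was run 4 were.

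Directions turned in 45 fits, all with 1 library left out and all for differences that had not been called. In RGZ against vehicle these log2 values ran for LPCAT1 from -0.0726 to 0.0451, LPCAT4 from -0.16 to 0.12 and PCYT1A from -0.18 to 0.14. In T0070907 against vehicle these log2 values ran for LPCAT2 from -0.000687 to 0.33, LPCAT4 from -0.12 to 0.15, MBOAT1 from -0.0933 to 0.17, MBOAT2 from -0.0438 to 0.33, PEMT from -0.0836 to 0.0279 and PCYT1A from -0.12 to 0.11. In the combination against RGZ these log2 values ran for LPCAT4 from -0.12 to 0.13 and PCYT1A from -0.33 to 0.000614. In the combination against T0070907 these log2 values ran for LPCAT1 from -0.15 to 0.0103, LPCAT4 from -0.15 to 0.0966 and MBOAT2 from -0.26 to 0.0631. In the combination against vehicle these log2 values ran for LPCAT1 from -0.0204 to 0.10, LPCAT2 from -0.21 to 0.0797, LPCAT4 from -0.13 to 0.11 and MBOAT2 from -0.16 to 0.24. In the interaction these log2 values ran for LPCAT1 from -0.12 to 0.0345, LPCAT4 from -0.16 to 0.12, MBOAT2 from -0.0449 to 0.32 and PCYT1A from -0.32 to 0.00711. With 3 libraries a group, a difference that was not called does not show that the levels were equal.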
